A study of Homo sapiens with 6 samples.

Results

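The SEC61 translocon is the protein channel of the endoplasmic reticulum membrane, and its genes are described here in MKN45 cells, a widely used line from a human gastric cancer. The 10 members were SEC61A1, SEC61B, SEC61G, SEC62, SEC63, SSR1, SSR2, SSR3, SSR4 and TRAM1, and all 10 were found by gene symbol among the 11658 genes of the deposited gene table, with 32 transcripts among the 30432 of the transcript table. The set was chosen on the gene level of SEC61A1, which had doubled between the groups, and the other 9 members were added for their part in the same machinery. The values of SEC61A1 are therefore a description without a test, and the question is whether the other subunits moved with it. Bulk RNA was sequenced in 6 libraries: 3 from cells given an shRNA, a hairpin that triggers RNA interference, directed at tcons_00001221 (target), and 3 from cells given the negative control shRNA (control). Both groups were the same line, grown in DMEM with serum, so the comparison covers 1 line and 1 targeted transcript. No row of either table (0) carried the targeted identifier, so the strength of the knockdown was not analysed here. In bulk RNA, fewer cells of a kind and less RNA per cell cannot be told apart.

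Most proteins that are secreted or sit in membranes enter the endoplasmic reticulum through this channel while the ribosome is still making them. SEC61A1 forms the pore, and SEC61B and SEC61G are small subunits that each cross the membrane once. SEC62 and SEC63 help proteins that arrive after synthesis, with SEC63 recruiting the chaperone HSPA5 (BiP). SSR1 to SSR4 are the subunits of the translocon-associated protein complex, and TRAM1 helps nascent chains enter the membrane. Genes of this machinery are textbook targets of the unfolded protein response, in which the factors ATF6 and XBP1 act on promoters.

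The promoters are shown because the 4 listed transcripts of SEC61A1 start at different places and because some members share a short element. Windows from 250 bases before to 50 bases after each RefSeq start were taken from RefSeq on GRCh38.p14, and 9 of the 10 members matched by symbol, all but TRAM1, with 13 windows. The motifs searched on both strands were TGACGTG, a core of the unfolded protein response element, CCAAT followed after 9 bases by CCACG, the endoplasmic reticulum stress element, and TGATGNAA, a form of the element that ATF4 binds with a C/EBP partner. The CACG of CCACG is also the start of CACGTCA, the reverse complement of TGACGTG, so these motifs can overlap. SEC61A1 has 2 windows, and the second (chromosome 3, 128052187 to 128052486, plus strand) holds TGACGTG, given in capitals, with its first base 1 base upstream of the RefSeq start.
SEC61A1: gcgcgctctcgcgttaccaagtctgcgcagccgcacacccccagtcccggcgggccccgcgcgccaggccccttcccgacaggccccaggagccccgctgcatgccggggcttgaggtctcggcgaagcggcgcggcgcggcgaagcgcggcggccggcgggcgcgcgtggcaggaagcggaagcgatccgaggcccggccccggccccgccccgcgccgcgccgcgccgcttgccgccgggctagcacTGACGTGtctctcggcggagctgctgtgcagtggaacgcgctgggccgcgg
Around the same letters, or their reverse complement CACGTCA, in capitals with 20 bases on each side, the other members with a match read as follows.
SEC62: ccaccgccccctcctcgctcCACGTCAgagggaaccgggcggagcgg
SSR3: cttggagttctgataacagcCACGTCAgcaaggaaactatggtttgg
SSR4: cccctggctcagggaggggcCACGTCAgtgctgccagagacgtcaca
The match lay 16 bases upstream of the start in SEC62 (chromosome 3, window 169966557 to 169966856, plus strand), 40 bases upstream in 1 of the windows of SSR3 (chromosome 3, 156554076 to 156554375, minus strand) and 128 bases upstream in 1 of those of SSR4 (chromosome X, 153794418 to 153794717, plus strand). TGACGTG was thus in 4 of the 13 member windows and 4 of the 9 genes, against 1.97% of all 35116 windows and 2.40% of all 27305 genes in the table. The stress element was in 0 of the 13 member windows and 0.0769% of all windows, and TGATGNAA in 0 of 13 and 3.62%. A match is a string of letters and was not tested as a binding site. The values of the 4 genes with the match are given with their complexes, and whether their changes differed was not tested.

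The libraries held both epithelial and mesenchymal markers, and bulk RNA cannot show whether the same cells carried both. Of 19 epithelial markers 10 were in the gene table, among them MUC13 (77.3 to 81.0 FPKM over the 6 libraries) and MET (77.0 to 88.5). EPCAM (5.96 to 7.92) and TFF1 (0.420 to 1.57) were far lower. CDH1, KRT19, ESRP1, CEACAM5, CEACAM6, TFF3, CDX2, VIL1 and LGALS4 were not among the genes analysed here. FPKM, fragments scaled to transcript length and library size, can be compared between genes per length. Of 14 mesenchymal markers 9 were in the table, led by the collagen COL5A1 (219 to 275 FPKM) and vimentin, VIM (179 to 209). FN1 (21.9 to 27.4), LUM (11.1 to 13.4) and CDH2 (4.96 to 6.88) were lower. ZEB1, TWIST1, COL1A1 and DCN stayed between 0.921 and 4.30 FPKM. COL1A2, COL3A1, SPARC, THY1 and PDGFRB were not among the genes analysed here. The summed FPKM of the epithelial markers was 363 to 379 in control and 347 to 359 in target libraries, and that of the mesenchymal markers 511 to 530 and 452 to 469. COL5A1 and VIM made up most of the mesenchymal sum. Both sums were lower with the target shRNA, and their part in the results was not tested. Single markers could differ: CLDN4, a tight junction protein, was at 10.03 to 10.96 FPKM in the control libraries and 10.6 in target library 1 but at 0.0586 and 0.175 in target libraries 2 and 3, and ELF3, an epithelial transcription factor, at 27.0 to 27.9 in control and 22.8 to 23.9 in target libraries. Neither passed: 0 of 9 epithelial and 0 of 9 mesenchymal markers tested did (limma, lowest adjusted p 0.0786 and 0.0819), where 0.749% of all genes passed. Groups did not overlap in 1 of the 9 epithelial and 3 of the 9 mesenchymal markers, against 23.7% of all genes. The gene FPKM of a library summed to 186226 to 192101, and the number of reads behind it is unknown.

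SEC61A1, the pore of the channel, doubled. Its gene (ENSG00000058262, GRCh37 chromosome 3, 127770484 to 127790526, plus strand) measured 80.9, 60.9 and 61.6 FPKM in control libraries 1, 2 and 3 and 137, 137 and 133 in target libraries 1, 2 and 3. The 3 target libraries lay close together and well above every control library, and control library 1 stood above the other two. The means were 67.8 ± 11.4 and 136 ± 1.89 FPKM (SD, n = 3 per group), so the target mean was 2 times the control mean. On the scale of log2(FPKM + 1), used for all log2 changes here and understating those of low genes, the change was 1.00 with an SE of 0.11. It ranked 30 by size of change among 10675 tested genes. This rank and the size of the change restate the choice of the set. Without control library 1 the control mean was 61.2 FPKM and the ratio 2.21.

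**Figure D1:**
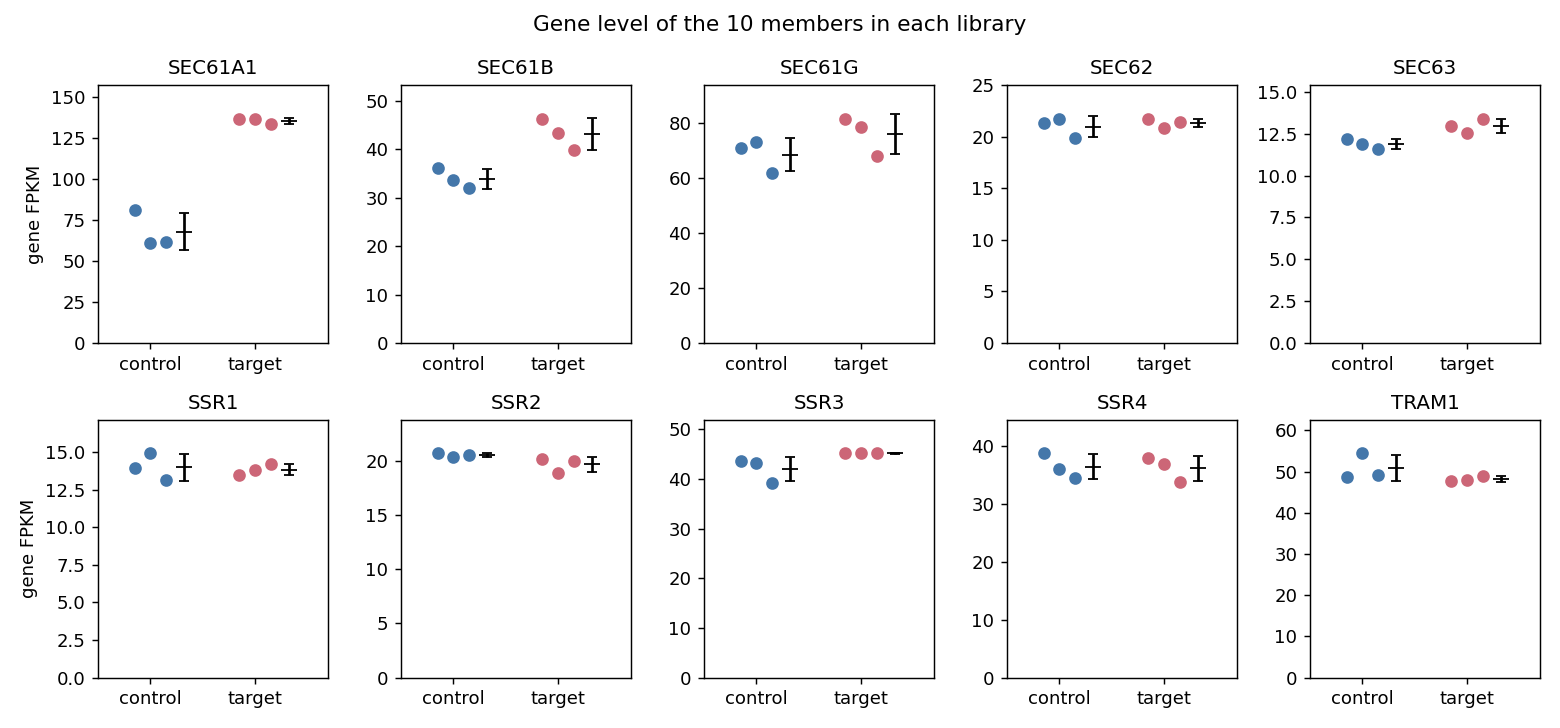
Gene FPKM of the 10 members in each control and target library (points), with the mean and SD of each group (black bars, n = 3); every vertical axis starts at 0. SEC61A1 rises from 67.8 to 136 FPKM with no overlap of groups, SEC61B from 33.9 to 43.2, and the other 8 members keep group means within 1.11-fold of each other.

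The 4 listed transcripts of SEC61A1 did not move alike. SEC61A1-001 (ENST00000243253, 12 exons and 1428 coding bases in GENCODE 29) measured 45.9, 74.7 and 76.6 FPKM in the control libraries and 176, 175 and 171 in the target libraries. It carried 40.7% of the summed transcript FPKM in control library 1, 95.3% and 96.5% in the other control libraries, and 99.7% to 99.9% in the target libraries. SEC61A1-003 (ENST00000424880, 8 exons, 1068 coding bases) measured 64.0 FPKM in control library 1, 1.40 and 0.983 in control libraries 2 and 3, and was listed at 0 in all 3 target libraries. High SEC61A1-003 was thus seen in 1 library of 6. SEC61A1-005, a short model of 303 coding bases, measured 1.35, 1.23 and 1.18 FPKM in the control libraries and was also listed at 0 in every target library. SEC61A1-002, whose start lies 728 bases upstream of that of SEC61A1-001, measured 0.587 to 1.41 FPKM in control and 0.259 to 0.550 in target libraries, so the minor models were lower in the target group while the main one was higher.

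These models share most of their sequence. Of the 3238 bases of SEC61A1-003, 3162 lie in exons of SEC61A1-001, and its start is 390 bases downstream, so the division of reads between them rests on few bases. The starts of SEC61A1-001 and SEC61A1-005 in GENCODE 29 lie 68 and 11 bases upstream of the RefSeq start of the printed window, inside it. By these starts the TGACGTG of that window lies downstream of the start of both models, not upstream. The start of SEC61A1-003 lies 273 bases past the end of that window. The gene value followed the length-weighted total of the models: the sum of transcript FPKM times transcript length, divided by the gene FPKM, was 4580 to 4679 bases over the 6 libraries, a range of 1.02-fold. This ratio cannot show whether the division among models was right. Control library 1, the library with high SEC61A1-003, also had the highest gene value of the control group (80.9 FPKM). The plain sum of the 4 transcripts was 113, 78.5 and 79.3 FPKM in control and 176, 176 and 172 in target libraries, a ratio of 1.94 between the means. With or without the division among models, the 3 target libraries were above the 3 control libraries.

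**Figure D2:**
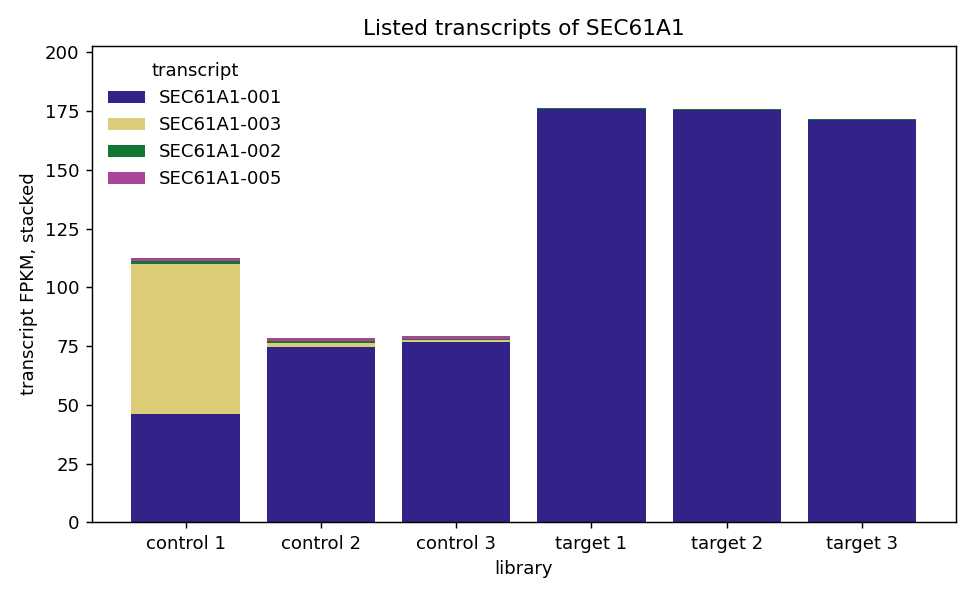
FPKM of the 4 listed transcripts of SEC61A1, stacked, in each library. SEC61A1-001 makes up nearly all of the total in 5 libraries, while in control library 1 SEC61A1-003 contributes 64.0 FPKM beside 45.9 of SEC61A1-001.

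SEC61A1 overlaps RUVBL1, an ATPase gene on the opposite strand, by 6906 bases at their 3' ends. Whether reads were counted by strand is not given in the sources used here, so reads of one could be placed in the other. RUVBL1 was low beside SEC61A1, at 3.64, 3.71 and 3.33 FPKM in control and 4.20, 4.26 and 3.78 in target libraries. Its difference did not pass (adjusted p = 0.314 by limma).

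SEC61B, the small beta subunit, was the member with the next largest difference. Its gene (ENSG00000106803, chromosome 9, 101984346 to 101992897, plus strand) measured 36.2, 33.6 and 31.9 FPKM in control and 46.4, 43.4 and 39.9 in target libraries. Every target library was above every control library. The means were 33.9 ± 2.14 and 43.2 ± 3.25 FPKM (SD, n = 3 per group), a ratio of 1.27. The log2 change of 0.34 with an SE of 0.07 did not pass the threshold of 0.05 after adjustment over all genes (adjusted p = 0.116 by limma). Its 95% interval, 0.17 to 0.51 before any adjustment, lay above 0 and below 0.98, the value of a doubling at its control mean. The main transcript, SEC61B-001, measured 75.6, 71.6 and 68.6 FPKM in control and 96.3, 93.9 and 84.2 in target libraries, again without overlap of groups (adjusted p = 0.346 over all transcripts). SEC61B-002 stayed between 0.392 and 3.93 FPKM in the 6 libraries.

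SEC61G, the gamma subunit, overlapped between groups. The gene (ENSG00000132432, chromosome 7, 54819943 to 54827667, minus strand) measured 70.7, 72.9 and 61.7 FPKM in control and 81.5, 78.4 and 67.8 in target libraries. The target library 3 value lay inside the control range, and the log2 change of 0.15 with an SE of 0.09 did not pass (adjusted p = 0.489, 95% interval -0.07 to 0.37). Its 4 listed transcripts each have 204 coding bases. SEC61G-005 measured 65.9, 78.5 and 66.5 FPKM in control and 91.0, 97.4 and 88.4 in target libraries. Its groups did not overlap, and it did not pass over all transcripts (adjusted p = 0.383 by limma). The share of all transcripts without overlap is not given here, so its lack in SEC61G-005 and SEC61B-001 is no result about them. Of the 512 bases of SEC61G-005, 392 lie in exons of SEC61G-001, so the division of reads between them is uncertain. SEC61G-001 (85.3 ± 5.98 and 84.3 ± 8.93 FPKM) and SEC61G-002 (50.7 ± 6.96 and 53.1 ± 4.71) overlapped between groups. SEC61G-201 swung between 0.000175 and 15.8 FPKM within the groups.

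The levels of the pore and its small subunits can be set against each other library by library. The ratio of gene FPKM of SEC61A1 to SEC61B was 2.24, 1.81 and 1.93 in control and 2.95, 3.15 and 3.34 in target libraries. The ratio of SEC61A1 to SEC61G was 1.14, 0.835 and 0.998 in control and 1.68, 1.74 and 1.97 in target libraries. Both ratios contain the value that chose the set, so their lack of overlap between groups restates that choice. From transcript sums, the mean ratio to SEC61B was 1.22 and 1.87, and that to SEC61G 0.430 and 0.738, in control and target libraries. The ratio of SEC61B to SEC61G, which SEC61A1 does not enter, was 0.512, 0.461 and 0.517 in control and 0.569, 0.553 and 0.588 in target libraries. It too was higher in every target library, and the difference was not tested.

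SEC62 and SEC63, the pair for proteins that arrive after synthesis, stayed near their control levels. SEC62 (chromosome 3, 169684423 to 169716161, plus strand) measured 21.3, 21.8 and 19.9 FPKM in control and 21.7, 20.9 and 21.4 in target libraries, with overlapping groups (log2 change 0.02, adjusted p = 0.844) and a sign that turned in some other settings. SEC63 (chromosome 6, 108188960 to 108279393, minus strand) measured 12.2, 11.9 and 11.6 FPKM in control and 12.9, 12.5 and 13.4 in target libraries. Every SEC63 value in the target group was above the control group, by a ratio of means of 1.09, and the log2 change of 0.11 with an SE of 0.05 did not pass (adjusted p = 0.302). SEC63 has 1 listed transcript, SEC63-001, at 15.6 ± 0.400 and 17.1 ± 0.595 FPKM (adjusted p = 0.740 over all transcripts). SEC62-001 carried 92.3% to 97.0% of the SEC62 sum, and the minor SEC62-002 measured 0.778 to 1.22 FPKM in control and 1.45 to 2.08 in target libraries (adjusted p = 0.689).

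The 4 subunits of the translocon-associated protein complex showed small differences in both directions. SSR3, the gamma subunit (chromosome 3, 156257929 to 156272973, minus strand), measured 43.7, 43.2 and 39.3 FPKM in control and 45.2, 45.1 and 45.2 in target libraries, without overlap (log2 change 0.10, SE 0.05, adjusted p = 0.380). SSR2, the beta subunit (chromosome 1, 155978839 to 155990750, minus strand), went the other way, at 20.7, 20.4 and 20.5 FPKM in control and 20.1, 18.9 and 19.97 in target libraries, also without overlap (log2 change -0.06, SE 0.04, adjusted p = 0.548). SSR1, the alpha subunit (chromosome 6, 7268539 to 7347679, minus strand), measured 13.9, 14.9 and 13.1 FPKM in control and 13.5, 13.8 and 14.2 in target libraries (adjusted p = 0.924). Its groups overlapped, as did those of SSR4, the delta subunit (chromosome X, 153058971 to 153063960, plus strand), at 38.8, 36.0 and 34.6 FPKM in control and 37.9, 37.0 and 33.8 in target libraries (adjusted p = 0.962). SSR4 overlaps IDH3G on the opposite strand by 1008 bases, and IDH3G measured 24.2 ± 0.517 and 22.9 ± 0.819 FPKM (adjusted p = 0.429). None of the 4 subunits passed, and the signs for SSR1, SSR2 and SSR4 turned in some other settings.

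The main models of SSR4 and SSR2 varied widely within groups. SSR4-006, the main SSR4 model, measured 218, 146 and 150 FPKM in control and 217, 135 and 196 in target libraries, where the SSR4 gene values ranged from 33.8 to 38.8. SSR2-001 measured 71.6, 109 and 96.9 FPKM in control and 105, 78.2 and 93.0 in target libraries, where the gene stayed between 18.9 and 20.7. The spread of these models within each group exceeded the difference between groups. SSR3-001 measured 48.6 ± 5.21 and 50.3 ± 4.04 FPKM, and SSR1-001 14.4 ± 0.581 and 15.3 ± 0.906. SSR1-006 measured 3.64, 11.8 and 2.40 FPKM in control and 0.683, 2.95 and 0.960 in target libraries, with overlap (adjusted p = 0.709 by limma). Among target libraries only library 2 reached the filter of 1 FPKM, so SSR1-006 was tested only through the group where it was higher. Nothing is drawn from its p. The other models of the complex that averaged 1 FPKM or more were SSR4-001, SSR4-005, SSR4-009, SSR2-008, SSR3-002, SSR1-007 and SSR1-011. They reached at most 6.74 FPKM in any library, and none that could be tested passed.

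TRAM1, the helper at the side of the channel (chromosome 8, 71485677 to 71520622, minus strand), measured 48.8, 54.4 and 49.2 FPKM in control and 47.7, 48.0 and 48.9 in target libraries. Its groups overlapped by the highest target and lowest control values, and the log2 change of -0.07 with an SE of 0.05 did not pass (adjusted p = 0.543). TRAM1-001 measured 64.8 ± 10.5 and 59.7 ± 7.09 FPKM. The alternative TRAM1-002 was high in replicate 1 of both groups, at 11.9 FPKM in control and 11.1 in target, and between 0.677 and 5.51 in the other 4 libraries.

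Over the 9 members other than SEC61A1, 0 were higher and 0 lower at an adjusted p of 0.05 by limma over the 10675 genes tested, where 80 genes (0.749%) passed. At this background share a count of 0 among 9 is no result about the members. Leaving out any 1 library left 23 to 42 genes past the threshold and still 0 of the 9. At an unadjusted p under 0.05 there were 2 of the 9, SEC61B and SEC63, where 16.1% of all genes were, so neither count is a result about the members. Limma without the trend and robust limma also called 0. Groups did not overlap in 4 of the 9, namely SEC61B, SEC63 and SSR3, which were higher with the target shRNA, and SSR2, which was lower. Over all tested genes this held for 23.7%. The median log2 change of the 9 was 0.02 and that of all tested genes 0.03, and 8 of the 9 lay between the 5th and 95th percentiles of all genes, -0.21 and 0.28, with SEC61B above. The 95% intervals, unadjusted, bear on the size of a shared rise: their upper bounds ran from 0.04 to 0.51 over the 9, all below the value of a doubling at the member's own control mean, which was 0.94 to 0.99 on this scale. With transcript sums in place of gene values the highest upper bound was 0.65, in SSR4. Of the 28 listed transcripts of these 9 genes 22 could be tested and 0 passed (limma, adjusted p 0.346 to 0.998, 2 at an unadjusted p under 0.05), where 60 of 20890 transcripts (0.287%) passed and 7.4% had an unadjusted p under 0.05. The main transcript of each of the 9 had an upper bound of at most 0.69. For 7 minor models, SEC61B-002, SEC61G-201, SEC62-002, SSR2-008, SSR3-003, SSR4-001 and TRAM1-002, the interval held both 0 and the value of a doubling at their own control mean, which was 0.52 to 0.87 for them, so neither was distinguishable.

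**Figure D3:**
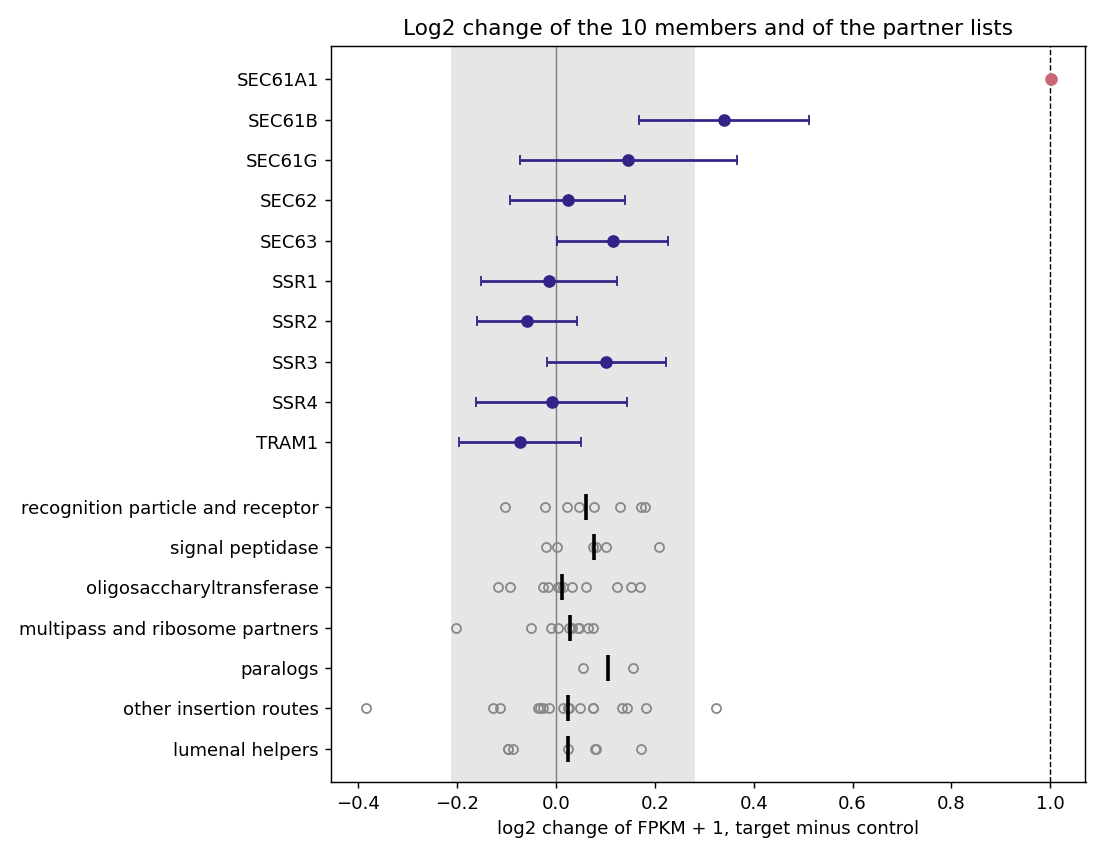
Log2 change of FPKM + 1, target minus control, for each member (filled points, with unadjusted 95% intervals for the 9 members other than SEC61A1) and for the genes of 7 partner lists (open circles, black bar at each list's median); the grey band spans the 5th to 95th percentiles of all tested genes and the dashed line marks 1, the value of a doubling in highly expressed genes. SEC61A1 stands at 1.00, SEC61B at 0.34 with an upper bound of 0.51, and the partner genes lie between -0.39 (EMC10) and 0.32 (WRB).

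Genes that bring proteins to the channel, work on them there or insert proteins by other routes, and paralogs of members, likewise gave no call. Of 63 genes on 7 lists 62 were tested; 0 passed, where 0.749% of all genes did, and 6 had an unadjusted p under 0.05, where 16.1% of all genes had. Groups did not overlap in 10 of the 62, against 23.7% of all genes. Their median log2 change was 0.03, as over all genes, and the largest change of either sign was -0.39, in EMC10. For 61 of the 62 the upper 95% bound was below the value of a doubling at the gene's own control mean. The exception was WRB, a receptor for tail-anchored proteins, at 2.08 ± 0.680 FPKM in control and 2.92 ± 1.148 in target libraries, with an interval of -0.31 to 0.96 against 0.74 for a doubling.

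Among the 8 genes of the signal recognition particle, which brings ribosomes to the membrane, and of its receptor, the median was 0.06. SRPRA, the receptor's alpha subunit, measured 23.2, 23.1 and 23.1 FPKM in control and 25.1, 25.8 and 25.3 in target libraries, a small difference without overlap (log2 change 0.13, SE 0.04, adjusted p = 0.192). SRP19 measured 5.75 ± 0.835 and 6.61 ± 0.308 FPKM (adjusted p = 0.424). Of the 6 signal peptidase genes, which cut off the leading peptide, the catalytic subunit SEC11C had the smallest p, at 2.60, 2.62 and 2.64 FPKM in control and 3.20, 3.14 and 3.20 in target libraries (log2 change 0.21, SE 0.05, adjusted p = 0.142). Its paralog SEC11A measured 21.8 FPKM in both groups, and SPCS1 8.18 ± 0.703 and 8.83 ± 0.557 (adjusted p = 0.561).

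Of the 12 genes of oligosaccharyltransferase, which adds sugar chains at the channel, RPN2 measured 140, 140 and 136 FPKM in control and 152, 151 and 150 in target libraries, without overlap (log2 change 0.12, SE 0.03, adjusted p = 0.168). OSTC measured 50.6 ± 5.75 and 56.2 ± 2.92 FPKM (adjusted p = 0.444), and RPN1, another subunit, 70.6 ± 0.933 and 69.8 ± 2.66 (0.870). The 10 partners for proteins that cross the membrane several times and for the bound ribosome had a median of 0.03, with LRRC59 at 59.2 ± 2.22 and 62.3 ± 2.54 FPKM (adjusted p = 0.505) and NOMO3, which shares near-identical sequence with NOMO1 and NOMO2 so that reads could be split among them, at 9.47 ± 0.374 and 9.11 ± 0.287 (0.661).

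The paralogs gave no call either. SEC61A2, the other alpha subunit gene, was far below SEC61A1, at 0.904, 0.666 and 1.02 FPKM in control and 1.03, 1.12 and 1.05 in target libraries (adjusted p = 0.421), close together but without overlap. Among control libraries only library 3 reached the filter of 1 FPKM, so SEC61A2 was tested only through the group where it was higher. Nothing is drawn from its lack of overlap or its p. TRAM2 was as abundant as TRAM1, at 53.0 ± 1.39 and 55.1 ± 2.20 FPKM (adjusted p = 0.586), and TRAM1L1 was not among the genes analysed here. Of 17 genes of other insertion routes, BAG6, a chaperone for tail-anchored proteins, measured 38.2 ± 0.657 and 34.9 ± 1.77 FPKM, lower without overlap (adjusted p = 0.279). EMC2, of the membrane protein complex that inserts some helices, measured 2.11 ± 0.0981 and 2.54 ± 0.289 (0.314). Of 7 lumenal helpers, the chaperone HSPA5 measured 222, 221 and 213 FPKM in control and 231, 233 and 230 in target libraries (log2 change 0.08, adjusted p = 0.290), and DNAJC10, a reductase of the lumen, 1.89 ± 0.0245 and 2.26 ± 0.157 (0.246). DNAJB11, a co-chaperone of HSPA5, measured 5.17 ± 0.130 and 4.81 ± 0.190 FPKM (0.473). Groups did not overlap for these 3 of the 7 helpers, with HSPA5 and DNAJC10 higher and DNAJB11 lower in the target libraries. Over all genes groups did not overlap for 23.7%, and a count among so few genes is no result about the list.

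The order of the members by level depended on the table. By gene FPKM in control libraries the order was SEC61G (68.5), SEC61A1 (67.8), TRAM1 (50.8), SSR3 (42.1), SSR4 (36.4), SEC61B (33.9), SEC62 (21.0), SSR2 (20.5), SSR1 (13.99) and SEC63 (11.9). Values overlapped between SEC61G and SEC61A1, between SSR4 and SEC61B, and between SEC62 and SSR2, so these neighbours were not ordered beyond their spread. By summed transcript FPKM the order began with SEC61G (210 ± 19.3), SSR4 (180 ± 42.2), SSR2 (95.2 ± 19.3), SEC61A1 (90.1 ± 19.5) and SEC61B (73.5 ± 4.78). Control sums overlapped between SEC61G and SSR4, and among SSR2 (74.5 to 113 FPKM), SEC61A1 (78.5 to 113) and SEC61B (69.1 to 78.6). These were likewise not ordered beyond their spread. By group means SSR2 thus ranked 8 among the 10 in one table and 3 in the other. The sum was 1.10 to 1.27 times the gene value in SSR3 and 3.87 to 6.07 times in SSR4. For SEC61A1, SEC61B, SEC61G, SEC62, SEC63, SSR1 and TRAM1 the length-weighted sum over the gene FPKM varied by at most 1.02-fold over the libraries, while it varied 1.16-fold in SSR3, 1.54-fold in SSR2 and 1.55-fold in SSR4. For SEC61A1 this length, 4580 to 4679 bases, exceeded the 3635 bases of its main transcript.

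**Figure D4:**
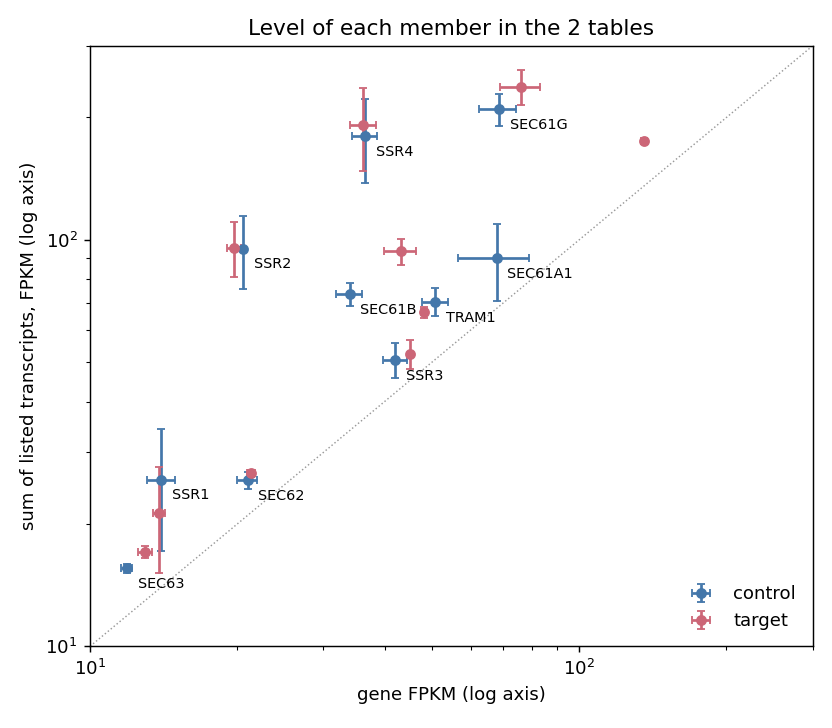
Gene FPKM (horizontal, log axis) against the summed FPKM of the listed transcripts (vertical, log axis) for each member; points are group means and bars SDs (n = 3), labels stand by the control point, and the dotted line marks equality. SSR4 and SSR2 lie farthest above the line, at sums of 180 and 95.2 against gene values of 36.4 and 20.5 FPKM in control, and SEC61A1 moves from 67.8 to 136 along the gene axis.

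The genes with profiles most like that of SEC61A1 were found by the Euclidean distance between centred log2(FPKM + 1) values over the 6 libraries, among the 3606 other genes that averaged 10 FPKM or more. The nearest were ASNS, the asparagine synthetase (distance 0.345), PSAT1, of serine synthesis (0.361), FAM129B (0.375), ISG15, a ubiquitin-like modifier (0.604), and IGFBP1, which binds insulin-like growth factors (0.619). ASNS measured 9.89, 9.85 and 7.94 FPKM in control and 17.8, 17.4 and 17.1 in target libraries, and FAM129B 70.4, 70.6 and 74.4 and then 138, 138 and 133. Likeness here is mostly the shared step between groups, since all 5 were low in every control and high in every target library.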

How the data were processed

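RNA-seq of 6 MKN45 libraries was analysed, 3 target and 3 control, grouped by sample title. The authors deposited FPKM per gene and per transcript, per the file headers. The submitters' processing notes name the builds hg19 and GRCh37. For the aligner, quantifier and strand setting, the sources used here give nothing. Low values showed no whole-read steps (28% to 30% near a multiple of the best step, at a tolerance of 0.1 step, where 20% are at any single step), so depth is unknown.

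Genes and transcripts reaching 1 FPKM in 3 or more libraries were tested as log2(FPKM + 1) with limma 3.58.1 (limma-trend, R 4.3.3), with Benjamini-Hochberg adjustment over all genes or all transcripts (threshold 0.05). All 10 members passed this filter. Errors are SDs or moderated SEs. The fit was tested on simulated data. Transcript lengths and exons came from GENCODE 29, matched by transcript ID, and promoters from RefSeq, both on GRCh38 and kept apart from the GRCh37 positions of the files. Tables and figures used Python 3.11.15, pandas 2.3.3 and matplotlib 3.10.9.

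The members, lists and tests were chosen with earlier results of these data known. Named beside the members were genes overlapping them, list genes past the threshold or else the 2 of smallest p per list, paralogs and the 5 nearest profiles. Genes named beyond that (RPN1, SEC11A, EMC10, WRB, DNAJB11, CLDN4, ELF3) were chosen after their values were seen. Alternatives were other pseudocounts, filters, scalings and limma settings, the replicate block, transcript sums and leaving out each library. No label says that the replicates came from separate cultures, and p-values then reflect only how these libraries differ, possibly for technical reasons.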

Additional observations from a re-analysis of the deposited data

How the results depend on the processing

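The count of 0 calls among the 9 members other than SEC61A1 held in all 15 alternatives, as did 0 among the partner lists, and 0 among the transcripts of the 9 in the 14 alternatives run on transcripts. Over all genes only 10 to 78 passed in these alternatives, so counts of 0 are no result about the members or lists. With the replicate block 0 transcripts passed at all, so the count of 0 member transcripts there was fixed in advance. The log2 change of SEC61A1 ranged from 0.93 to 1.13, the latter without control replicate 1. Calls over all genes fell from 80 to 52 when a mean of 5 FPKM was required and to 27 with transcript sums, and ranged from 23 to 42 when 1 library was left out. Over all transcripts 60 became 39 with a pseudocount of 0.1 FPKM, 18 when a mean of 5 FPKM was required, and 33 to 53 without 1 library. With the replicate block 10 genes and 0 transcripts passed (limma, 1264 transcripts at an unadjusted p under 0.05). Deviations of same-numbered libraries correlated at -0.013, 0.019 and 0.066 across genes, and control replicate 1 correlated best with target replicate 2, so the numbers were not used to pair. Of the changes of the 9 members, 127 of 135 values kept their direction without a change of call. This tally overstates stability. Where only the filter, the trend, robust fitting or the replicate block differed, the log2 change stayed the same, so its direction was fixed in advance. The sign turned for SEC62 with rescaling to the same median (-0.011) and without control replicate 3 (-0.014), for SSR1 without control replicate 2 (0.029) or target replicate 1 (0.004), for SSR4 without control replicate 1 (0.036), without target replicate 3 (0.039) and with transcript sums (0.091), and for SSR2 with transcript sums (0.015). Over the libraries left out in turn, the change ranged from -0.057 to 0.029 for SSR1 and from -0.045 to 0.039 for SSR4. The cause was not tested. SEC61B kept an adjusted p between 0.090 and 0.308 in these settings. The unknown depth limits the minor transcripts most.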
